A study of Mus musculus with 36 samples.

Results

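The nucleotides described here are those at which a single-strand DNA break (SSB) was mapped again and again, at the same coordinate and on the same strand, in libraries of different tissues. They were chosen by the SSB lists themselves: an autosomal nucleotide was a member if it was listed in 3 or more of the 12 SSB libraries. Of 5387480 autosomal SSB nucleotides, 958 met the rule, which is 0.0178%. The animals were male C57BL/6J mice of a single age, 24 months. The samples were motile sperm of the epididymis, peripheral blood mononuclear cells (PBMCs), bone marrow freed of red cells, brain, liver and heart, with 2 SSB libraries and 2 libraries of abasic (AP) sites from each tissue. The study made these profiles to ask whether DNA damage records age and tissue. According to the labels 2 mice supplied all 6 tissues, so that libraries of different tissues may share an animal, and the p-values given here measure the spread between libraries. Break positions carry no tissue markers, so the tissue labels could not be checked against them.

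An SSB is a gap in the backbone of 1 strand of the double helix. It arises from oxidation of the sugar, from stalled topoisomerases and as an intermediate of base excision repair, in which a glycosylase removes a damaged base, an endonuclease cuts at the resulting AP site, and a polymerase and a ligase close the gap. SSiNGLe marks the 3′ end left by a break and reads it at single-nucleotide resolution. SSiNGLe-AP does the same for AP sites. Ribosomal RNA genes and satellite repeats exist in a great many near-identical copies, of which a genome assembly holds few, so that reads from many copies can fall on one assembled copy and the copy of origin is uncertain.

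Sequence was at hand for the members that lay in promoters, here the 250 bases before and 50 after a RefSeq transcription start on GRCm38.p6. There were 12 such members, and 6 are shown because the base immediately 5′ of the listed nucleotide was the same in all of them. Each is written 5′ to 3′ on the broken strand, with 20 bases on either side and the listed nucleotide in capitals. These genes, and the others with a member in a promoter, were named after their values were seen.
Add3, chr19:53140229-53140269, minus strand: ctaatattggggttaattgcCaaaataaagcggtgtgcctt
Mga, chr2:119897072-119897112, plus strand: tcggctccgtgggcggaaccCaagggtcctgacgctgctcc
Ccni, chr5:93206536-93206576, minus strand: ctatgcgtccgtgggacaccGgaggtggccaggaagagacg
Cish, chr9:107296537-107296577, minus strand: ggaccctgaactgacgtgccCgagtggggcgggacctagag
Ndufa7, chr17:33824420-33824460, plus strand: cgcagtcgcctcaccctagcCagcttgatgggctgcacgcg
Nfatc2ip, chr7:126396822-126396862, minus strand: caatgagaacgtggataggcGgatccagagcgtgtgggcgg

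In all 12 promoter members the base immediately 5′ of the listed nucleotide was C (100%, Wilson 95% interval 75.8% to 100%). The same base stood there for 76.5% of 545 promoter nucleotides of exactly 2 SSB libraries and for 54.8% of 57650 promoter nucleotides of 1 library, against 27.0% C over both strands of all promoter windows. The share of C before the listed nucleotide was thus higher the more libraries listed it, as a description of these lists with no test. At the listed nucleotide itself C, G and T occurred in 7, 3 and 2 of the 12 members, and A in 0. For promoter nucleotides of 1 library the shares there were 39.0% C, 35.0% G, 20.3% T and 5.67% A. A was thus rare among these as well and its absence is not particular to the members. Add3, which encodes an adducin of the membrane skeleton, was the promoter member of most libraries, with 6. The others, in 3 libraries each, lay at Mga (2 members), Ccni (cyclin I), Cish (a suppressor of cytokine signalling), Ndufa7 (a subunit of respiratory complex I), Nfatc2ip, Polr3gl (a subunit of RNA polymerase III), Tspan11, Mycbpap, E230001N04Rik and a window that Psenen and U2af1l4 share. In total 1.25% of the members lay in promoters, against 1.08% of all autosomal SSB nucleotides. All 12 lay outside clusters, where they were 4% of the 300 members. None of these 12 was listed in an AP library at the same nucleotide, beside 5% of the 300 members outside clusters. With 12 members a count of 0 cannot be told from that share.

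Most SSB nucleotides were seen once. In total, 5359219 nucleotides were listed in 1 library and 27303 in exactly 2, just outside the rule. Just inside it, 673 were listed in exactly 3 libraries, and 161 in 4. The number then fell to 1 nucleotide in 10 libraries, and 3 were listed in 11 and 10 in all 12. Because each tissue had 2 libraries, every member was by construction found in at least 2 tissues. Of the 958 members, 243 were carried by 2 tissues, 540 by 3, 115 by 4, 31 by 5 and 29 by all 6.

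**Figure D1:**
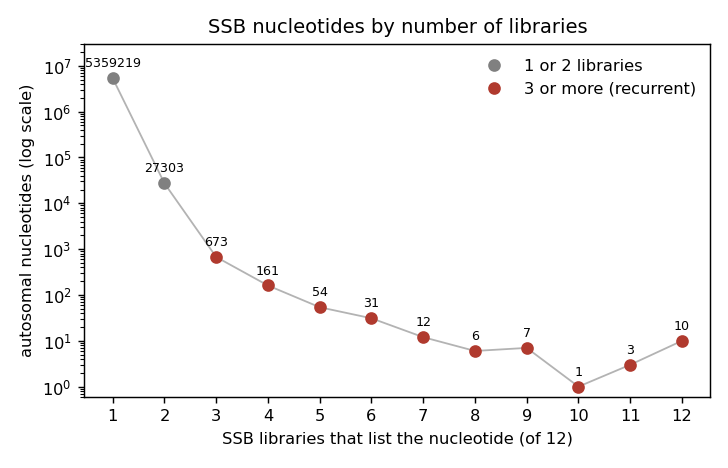
Number of autosomal SSB nucleotides (log scale) against the number of the 12 SSB libraries that list them, with each count printed; red points are the recurrent nucleotides. The counts fall from 5359219 in 1 library to 1 in 10 libraries and end at 10 in all 12.

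The libraries held 225011 to 1041983 SSB positions and 460719 to 963258 AP positions. Deeper SSB libraries tended to hold more members, from 182 in the second sperm library to 488 in the second heart library, the deepest (median 269). Per 100000 autosomal positions the members ranged from 47.8 to 88.3 with a median of 67.8. The lowest was the second heart library, beside 69.0 in the first, and the highest the first PBMC library, beside 61.7 in the second. Bone marrow had the highest mean, 79.3 ± 4.97, followed by PBMCs with 75.0 ± 18.8 and liver with 73.2 ± 5.73 (SD, n = 2 each). Sperm followed with 63.4 ± 4.03, then brain with 59.1 ± 10.5 and heart with 58.4 ± 15.0. In each of the 6 tissues the deeper library had the lower rate, so that the order is not free of depth. Neighbours in this order differed by less than the SD of one or both tissues, except liver and sperm.

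**Figure D2:**
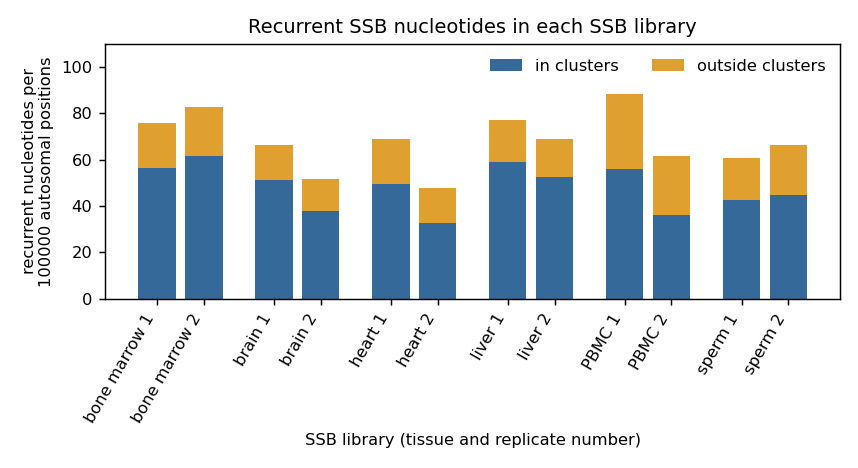
Recurrent SSB nucleotides per 100000 autosomal SSB positions in each of the 12 SSB libraries, split into those in clusters (blue) and those outside (yellow). Totals run from 47.8 in heart 2 to 88.3 in PBMC 1, and every library holds both kinds.

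Libraries of a tissue shared members about as often as libraries of different tissues. For 2 libraries of the same tissue, the share of the smaller library's members also carried by the other was 38.7% ± 8.96 (SD, n = 6 pairs), and for libraries of different tissues 35.2% ± 8.90 (SD, n = 60 pairs). These values rest on the SSB lists that chose the members and are given without a test. The rule leaves out nucleotides shared only by the 2 libraries of a tissue, so that it partly fixes this comparison. Depth enters as well. Pairs with the second heart library, the deepest, shared 44.7% to 53.0%, and the second bone marrow and second sperm libraries shared 18.1%. Outside clusters the PBMC libraries had the highest rate, with 28.9 ± 4.59 members per 100000 positions, and brain the lowest, with 14.6 ± 0.877 (SD, n = 2 each). Within clusters bone marrow was highest, with 59.0 ± 3.82, and heart lowest, with 41.1 ± 11.7.

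The members were concentrated at few places. When members with gaps of at most 10000 bp were joined and groups of 3 or more kept, 24 clusters held 658 members (68.7%) in 117781 bp in all, and 300 members lay outside. The 3 largest clusters held 494 members, 51.6% of the total. On a finer scale, 222 members (23.2%) lay in 97 runs of directly adjacent nucleotides on a strand, the longest of 5 nucleotides, and 7 coordinates were members on both strands. Of the 24 clusters, 9 overlapped a gene.

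The largest cluster, chr17:39843205-39848774, held 312 members (32.6% of all) in 5570 bp, 213 on the plus and 99 on the minus strand. It lies at Rn18s-rs5, annotated as a pseudogene of the small ribosomal RNA, and at one end of the span of the lncRNA AY036118. Of its members 275 lay between 39843205 and 39846325, outside any gene span, 37 lay in AY036118, and 0 lay within the 1849 bp of Rn18s-rs5, where no SSB nucleotide was listed in any library. The gap is thus one of all listed SSB nucleotides, not only of recurrent ones. Unlisted nucleotides are not shown to be unbroken. The density of all SSB nucleotides over the cluster was 437 per kb, 200 times the autosomal mean of 2.19 per kb, summed over the 12 libraries. Most of them, 1585 of 2433, were seen in 1 library. No member there was found in more than 8 libraries, and the highest count at one of them was 4.

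**Figure D3:**
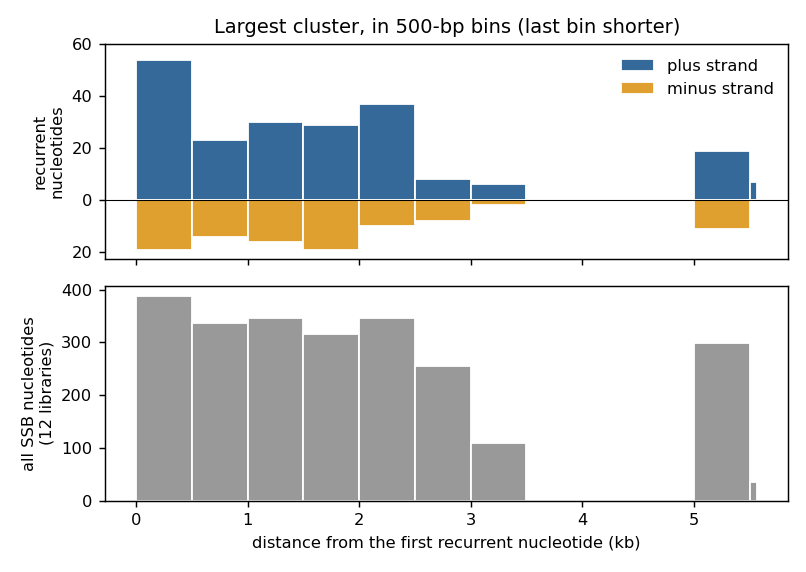
Recurrent nucleotides on each strand (top; plus strand upwards, minus strand downwards) and all SSB nucleotides (bottom) in 500-bp bins along the largest cluster, by distance from its first member. Members number 73 in the first bin and 0 in the 3 bins between 3.5 and 5 kb, where 1 SSB nucleotide in all was listed.

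All 12 libraries carried this locus, but not at one level. SSB positions there were 1033 and 1140 per 1000000 in the bone marrow libraries, 823 and 810 in liver, 719 and 584 in brain and 692 and 608 in heart. In sperm they were 429 and 477, and in PBMCs 476 and 373. The bone marrow libraries were above all others and did not overlap them, and the sperm and PBMC libraries were below all others. The values are a description, since the locus was chosen by SSBs. AP positions at the same locus, which the rule did not use, ranged from 172 to 477 per 1000000 with a median of 272, and the libraries of a tissue could lie far apart: 177 and 410 in liver, 477 and 293 in bone marrow.

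The second cluster, chr11:3123850-3196653, held 108 members over 72804 bp, 45 on the plus and 63 on the minus strand. It covers Sfi1, whose product binds centrins at the centrosome, with 93 members, and the pseudogene Pisd-ps1 with 14. Gm11400 with 9, Fau-ps2 with 2 and Gm33862 with 1 lie within Sfi1. SSB density was 86.9 per kb, 39.7 times the autosomal mean, and no member was found in more than 5 libraries or had a count above 2. The libraries had 1138 to 1462 SSB positions per 1000000 (median 1338) and 1150 to 1574 AP positions per 1000000 (median 1352). Both sperm libraries were the lowest for SSBs and the highest for AP positions, and both bone marrow libraries were the lowest for AP positions, with 1151 ± 0.923 against 1550 ± 34.1 in sperm (SD, n = 2 each). Pisd-ps2, a related pseudogene on chromosome 17, carried 7 members in a cluster of its own. Reads of such copies cannot be assigned with certainty.

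The third cluster, chr15:75086409-75086949, packed 74 members into 541 bp with no gene, 11389 bp from the nearest one, the predicted Gm5960. The fourth, chr18:40308060-40308403, had 28 members within Kctd16, an auxiliary subunit of the GABA-B receptor, and was almost one-stranded, with 27 on the minus and 1 on the plus strand. Kctd16 spans 290954 bp, and all its members lay in these 344 bp. The others among the 8 largest were chr19:61266679-61267165 with 20 members and no gene, chr13:119597006-119602171 in Tmem267 with 14, chr1:195241584-195241802 with 10 and chr18:3005903-3010374 with 10, both without a gene. These 8 clusters had an SSB density 16.4 to 247 times the autosomal mean.

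A different kind of locus carried the members of most libraries. The 10 nucleotides listed in all 12 SSB libraries and the 2 leading ones of 11 lay at 5 short runs, at which SSBs were mapped at 2 to 5 adjacent nucleotides of 1 strand and at none of the 4 nucleotides before them. The SSB density over these clusters need not be high: the cluster chr2:98662231-98667335 held 9 members among 11 SSB nucleotides in 5105 bp, 0.984 times the autosomal mean. Each of the 5 runs had a nucleotide with a deposited count of at least 10 in some library. This count is the raw number of times the break was recorded. Not every nucleotide of the runs had high counts: chr2:98662232 had 1 to 4 per library. Counts and numbers of libraries come from the same lists and are not separate traits. The files give no molecular identifiers, so a count need not be a number of molecules.

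At chr2:98667333 on the plus strand the count in the 12 libraries ran from 29 to 88 with a median of 46.5, the sum being 587. The next nucleotides, 98667334 and 98667335, had 301 and 64, and the 4 positions before the run had 0. The nearest gene is the lncRNA Gm33780, at 35266 bp. On the minus strand of the same cluster, 98662234, 98662233 and 98662232 had summed counts of 80, 37 and 24.

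At chr10:72297177 and 72297176 on the minus strand, the libraries had 20 to 47 (median 37.5) and 19 to 41 (median 25.5) counts. No gene lies within 12024 bp. At chr7:104428093 and 104428094 on the plus strand, within Trim30a, a member of the tripartite-motif family that acts in innate immunity, they had 12 to 39 (median 23.5) and 4 to 23 (median 14.5). All 4 members of this gene of 56169 bp lay at 104428093 to 104428096. At chr14:106331467 on the minus strand the counts were 3 to 12 with a median of 9.5, and its neighbour 106331466 had 1 to 8 in 11 of the libraries and 0 in the second bone marrow library.

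Over the members as a whole, high counts were rare. A count of at least 10 in any library occurred at 10 members, each in 11 or 12 libraries, and these gave 37.6% of the summed count of 6375 at all 958 members. No other member exceeded 9. In 660 members every library had a count of 1. A count above 1 was reached in at least 1 library by 31.1% of the members, beside 0.566% of all autosomal SSB nucleotides. The rule used the same lists, and a nucleotide in several libraries has several chances, so the shares are not compared by a test. Within a library, 15.5% ± 3.44 of the members and 0.487% ± 0.330 of the other autosomal positions had a count above 1 (SD, n = 12). The highest count at a member was 30 to 88 per library, and elsewhere 2 to 5.

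Gene spans held 398 members, 41.5% (Wilson 95% interval 38.5% to 44.7%), beside 61.5% of all autosomal SSB nucleotides. The difference was one of the clusters: within them 32.2% of the members lay in genes, and outside 62.0% (interval 56.4% to 67.3%), close to the share of all nucleotides. Intervals here and elsewhere cover counting error only, and neighbouring members are not independent. In all 204 genes had a member, 172 of them protein-coding and 22 lncRNAs. Of these genes 184 had 1 member, 10 had 2 and 10 had 3 or more.

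The genes with 3 or more were Sfi1 (93), AY036118 (37), Kctd16 (28), Pisd-ps1 and Tmem267 (14 each), Gm11400 (9), E030030I06Rik (8), Pisd-ps2 (7), Gm40034 and Trim30a (4 each), and all these members lay in clusters. The first genes in order after them, with 2 members outside clusters each, were Dlg2 and Eef2. Eef2 encodes the elongation factor that moves the ribosome along the mRNA. Its members were the adjacent nucleotides 81182495 and 81182496 of chromosome 10, in 7 and 9 libraries, a few bases inside the end of its span at 81182509 and 492 and 491 bp from the 5′ end of Dapk3. At the second of these the libraries had counts of 0 to 5, with 0 in the first bone marrow and in both sperm libraries.

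Members lay near gene ends more often than SSB nucleotides in general, again as a description, but those in clusters mostly at the ends of Rn18s-rs5. Within 1000 bp of either end of a gene lay 20.04% of the members (192 of 958, interval 17.6% to 22.7%), 19.9% of those in clusters and 20.3% of those outside, beside 10.7% of all autosomal SSB nucleotides. The ends of Rn18s-rs5, in the largest cluster, had 50 and 37 of these members. Without that cluster the share of members near a gene end was 16.3%. The direction of transcription was known for 54.7% of the genes. Within 1000 bp of a known 5′ end lay 3.55% of all members and 9.67% of those outside clusters (29 of 300, interval 6.82% to 13.5%), beside 4.36% of all nucleotides. For 3′ ends the shares were 7.31% and 5.33% (16 of 300, interval 3.31% to 8.49%), beside 3.23%. By number of libraries the share near a 5′ end did not follow 1 direction: it was 4.35% for nucleotides of 1 library, 6.45% for exactly 2, 4.31% for exactly 3 and 1.75% for 4 or more, clusters included.

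The ends with most members were both of Rn18s-rs5 (50 and 37), the 3′ end of AY036118 (the same 37), the 3′ end of the lncRNA Gm40237 on chromosome 4 (9, all on the plus strand within 32 bp), and both of Gm11400 (8 and 7), the last tied with the 3′ end of Gm40034 (7). All these lay in clusters. Members outside clusters near 5′ ends were spread over many genes and mostly in 3 libraries. That at chr2:158028045, in 7 libraries, lay within Tti1, a partner of the kinases related to phosphatidylinositol 3-kinase, 430 bp from the 5′ ends of both Tti1 and Rprd1b.

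Of the 300 members outside clusters, 260 were in 3 libraries, 22 in 4 and 18 in 5 or more. They were spread over the autosomes at 3.50 to 8.01 per 100000 SSB nucleotides of a chromosome. The one in most libraries, 10, was chr10:32816607 on the minus strand in Nkain2, with counts up to 9 in the first bone marrow library. Its neighbour 32816606 was in 5 libraries. Others in 7 were chr7:91500116 in Dlg2, a scaffold protein of synapses, and chr4:87920151 in Mllt3, a chromatin reader, both on the plus strand. These genes are long, and Dlg2 had 3437 SSB nucleotides of which 2 were members.

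Members were in 4 of the 10 gene lists. The genes of very long common fragile sites had 4 members, in Dlg2, Dpp10 and Wwox, among 68528 SSB nucleotides, or 0.00584%. All 4 lay outside clusters, where the members were 0.00557% of all autosomal SSB nucleotides, so that the list was near the general share. None of the 31 genes of SSB and base excision repair found on autosomes had one among 2569 nucleotides, and neither did the hepatocyte, cardiac muscle, neuron and glia, blood cell and sperm lists, with 532 to 8038 nucleotides each. A count of 0 allows a share of up to 0.0373% in the longest of these lists and 0.564% in the shortest, above the overall share, so that a lower share could not be detected at this depth. Eef2 was the one gene of 16 widely expressed ones with members, 2 of 667 nucleotides in the list (0.2999%), and these are adjacent. The list of ribosomal RNA loci had 37 members, 9.69% of its nucleotides, all in AY036118. That of tandem repeat and satellite-like predicted genes had 93, or 1.66%, all in Sfi1, the one of its 14 symbols that the annotation holds. Both shares are above the 0.0178% over all autosomal SSB nucleotides. Each rests on a single locus among the largest clusters, and the lists were chosen with earlier results known, so neither share describes its list. Sfi1 itself is annotated as protein-coding. No member lay in any of 919 autosomal miRNA hairpins. The share of all autosomal SSB nucleotides in hairpins is not given, so that this count cannot be called low.

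The AP libraries were made by another assay and played no part in the choice of members, so that they allow a test. According to the paper, the DNA for both assays came from the same tissue samples. The AP libraries are therefore a separate measure but not separate material, and a mapping effect shared by both lists was not tested. In all 320 of 958 members (33.4%) were listed in at least 1 of the 12 AP libraries at the same nucleotide and strand, beside 0.923% of all autosomal SSB nucleotides. The share was 0.906% for nucleotides of 1 SSB library, 3.12% for those of exactly 2, 25.1% for exactly 3 and 53.0% for 4 or more. A smaller number, 94 members, were in 3 or more AP libraries and so recurrent in both assays, and 8 were in all 12, of which 4 were also in all 12 SSB libraries. These 4 were the leading pairs of nucleotides in Trim30a and at chr10:72297176.

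Per AP library, 4.91% to 9.19% of the members were listed, with a median of 6.47%. The lowest and the highest were the first liver and the second bone marrow library, and 47 to 88 members were listed. Of the nucleotides of 1 SSB library, 0.0464% to 0.109% were listed, with a median of 0.0810%, and the ranges did not overlap. The mean was 6.86% ± 1.36 for members and 0.0788% ± 0.0207 for the others, a difference of 6.78 percentage points, higher in 12 of 12 libraries (two-sided exact sign-flip test, p = 0.000488, adjusted over 6 tests 0.000732). This p is the smallest that 12 paired differences can give.

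Single-library nucleotides of the same 10 kb windows were listed more often than those elsewhere, at 1.30% ± 0.347, but less often than members in 12 of 12 AP libraries. These windows are wider than clusters such as the third, of 541 bp, so that their share need not be that of the cluster itself. The strand was shared as well. At the same coordinate on the opposite strand 0.939% to 3.24% of the members were listed (median 1.67%), and the mean there was 1.81% ± 0.677, lower than on the members' own strand in 12 of 12 libraries (exact sign-flip test, p = 0.000488, adjusted 0.000732).

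**Figure D4:**
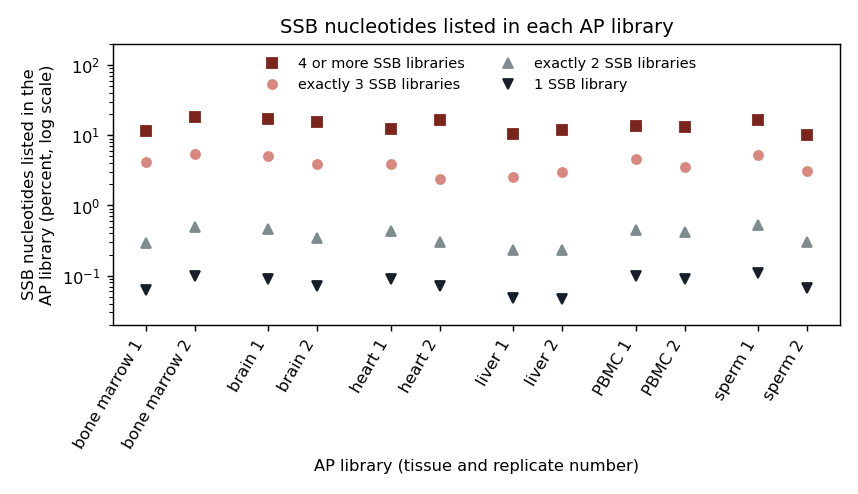
Percent of SSB nucleotides (log scale) that each of the 12 AP libraries lists at the same nucleotide and strand, for nucleotides of 4 or more, exactly 3, exactly 2 and 1 SSB libraries. In every AP library the 4 sets are in the same order, with 10.2% to 18.2% for 4 or more and 0.0464% to 0.109% for 1.

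Nucleotides in 4 or more SSB libraries were held by the AP lists more often than those in exactly 3. Of nucleotides in 4 or more SSB libraries 10.2% to 18.2% were listed (median 13.3%), and of those in exactly 3, 2.38% to 5.35% (median 3.86%). The means were 13.9% ± 2.72 and 3.89% ± 1.02, higher for 4 or more in 12 of 12 libraries (exact sign-flip test, p = 0.000488, adjusted 0.000732). Members in 10 to 12 SSB libraries were listed in 7.57 AP libraries on average, and those in exactly 3 in 0.467.

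AP positions at members also had higher counts. A count above 1 was found at 22.7% to 37.7% of them (median 28.3%), and at 0.338% to 0.928% of all other autosomal AP positions (median 0.423%). The means were 29.5% ± 4.56 and 0.456% ± 0.160 (12 of 12 libraries, exact sign-flip test, p = 0.000488, adjusted 0.000732).

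These results were largely those of the clusters. In clusters 305 of 658 members (46.4%) were listed in an AP library, and outside 15 of 300 (interval 3.05% to 8.08%). Outside clusters the mean per AP library was 0.583% ± 0.352, a difference of 0.505 points from single-library nucleotides, in 12 of 12 libraries (exact sign-flip test, p = 0.000488). The difference of 4 or more from exactly 3 SSB libraries was 1.01 points there, higher in 7 of 12 libraries, beside 10.001 points over all members (exact sign-flip test outside clusters, p = 0.0195). Higher counts could not be shown there, since 1 of 12 AP libraries had a count above 1 at such a member (exact sign-flip test, p = 1). The largest cluster did not decide the comparison, since without it the difference was 6.77 points.

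AP positions did not peak at the listed nucleotide but 1 nt in the 3′ direction from it. At that distance 10.1% ± 2.15 of the members had an AP position on their strand, against 6.86% ± 1.36 at the nucleotide itself, and the value was higher in 12 of 12 libraries. For members in clusters the profile fell to 4.65% at 3 nt and was lower further out, but it levelled off well above 0. It was 3.41% at 10 nt in the 5′ direction and 3.47% at 10 nt in the 3′ direction. At 20 nt in the 3′ direction it was 3.18%, against 9.73% at the nucleotide. A part of the listing in clusters is thus shared by nearby nucleotides. Outside clusters it was 1.86% at 1 nt and 0.583% at the nucleotide, and for nucleotides of 1 library 0.135% and 0.0788%. The peak was thus at the same distance in all 3 sets. This offset was looked at after the values were seen. Whether the SSB and AP lists follow the same convention for the listed nucleotide is not stated. A fixed shift between the lists was not tested, and comparisons at the same nucleotide rest on the coordinates as listed. With the AP position taken 1 nt on, 38 of the 300 members outside clusters (12.7%) were listed in an AP library, against 1.55% of single-library nucleotides.

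**Figure D5:**
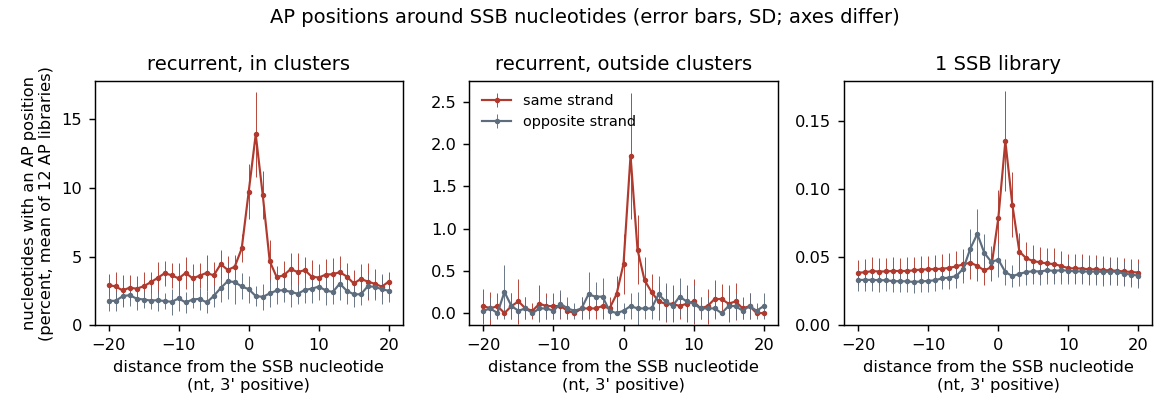
Percent of SSB nucleotides with an AP position at each distance (nt, 3′ positive), on the same (red) and the opposite strand (grey), as the mean over 12 AP libraries with SD, for members in clusters, members outside and nucleotides of 1 library; the vertical axes differ. The same-strand peak is at 1 nt in each panel, at 13.9%, 1.86% and 0.135%.

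The runs listed in nearly every library showed the offset in their counts. In Trim30a the SSB counts summed over the 12 libraries were 288, 170, 34 and 11 along 104428093 to 104428096, and the AP counts 49, 161, 123 and 37. At chr10:72297177 and the next 2 nucleotides in the 3′ direction, SSB counts were 438, 326 and 0 and AP counts 250, 285 and 187. At chr14:106331467 SSB counts of 104, 49 and 17 stood beside AP counts of 5, 26 and 31. In each the SSB maximum was at the first nucleotide and the AP maximum 1 or 2 nt further in the 3′ direction, and neither assay had a count at the 4 nucleotides before the run.

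The assays differed in how much they recorded at these runs. At chr2:98667333 and the 4 nucleotides after it, the summed SSB count was 952 and the AP count 36. At chr10:72297177 they were 768 and 723. All 12 libraries of both assays had the chr10 pair, with 14 to 28 AP counts (median 20.5) at 72297177, while only 2 AP libraries listed chr2:98667333, each with a count of 1.

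No tissue difference in the AP listing of members was shown. Per 1000000 AP positions, the percent of members listed was 11.2 ± 1.52 in liver, 10.7 ± 0.637 in brain, 10.5 ± 1.11 in bone marrow, 8.64 ± 0.344 in sperm, 8.60 ± 1.25 in heart and 7.66 ± 0.525 in PBMCs (SD, n = 2 each). An exact permutation test over all ways to pair the 12 libraries gave p = 0.0631 (adjusted 0.0757). With the percent of members not divided by AP positions, the same permutation test gave p = 0.473. The liver libraries, highest here, had the fewest AP positions (486732 and 460719), and the part of depth in this order was not tested. Without the first liver AP library, which leaves 1 value for liver, p was 0.0352 (exact permutation test). Members carried by the SSB libraries of a tissue were not listed more often in the AP libraries of the same tissue, the mean excess being 0.0359 percentage points (exact permutation test over 720 label orders, p = 0.899, adjusted 0.899).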

How the data were processed

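SSB and AP site libraries of 6 tissues of 24-month-old mice (12 each) were analysed. For each library the authors deposited a list, made with their own code, in which every mapped nucleotide has its strand and an integer count of records, neither normalized nor pooled. The aligner and filters are not given in the sources used here, and how far they kept reads of repeats bears on every repetitive locus. The submitters' processing notes name mm10 and GRCm38 as builds. RNA profiles and other ages were not used here.

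Positions on chromosomes 1 to 19 were written 1-based, matched by coordinate and strand, and each counted once. A nucleotide in 3 or more of the 12 SSB libraries was a member. Members joined by gaps of at most 10000 bp formed a cluster if 3 or more. Genes were RefSeq spans of GRCm38.p6 (47038 on autosomes, 25747 with a strand from the promoter table), without exons, and gene ends reached 1000 bp either way. Depth was 225011 to 1041983 SSB and 460719 to 963258 AP positions.

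Tests used AP libraries only: two-sided exact sign-flip tests over 12 paired differences, and exact permutation tests over library pairings and tissue labels, adjusted over 6 tests (Benjamini-Hochberg) and called at 0.05. SSB measures of members were described without tests, with Wilson 95% intervals of shares. The procedures were tested on simulated data. Tables were handled with pandas 2.3.3 and numpy 2.4.6 in Python 3.11.15, intervals computed with scipy 1.17.1 and plots drawn with matplotlib 3.10.9.

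The members and gene lists were chosen with earlier results of these data known. The rule named the 12 gene spans with most members, the 8 largest clusters, the 12 members in most libraries (then by summed count), the 6 gene ends with most members and up to 4 genes of each list. Alternatives were other thresholds, thinning, windows and gaps, leaving out libraries, and a replicate block. Leaving out the largest cluster and comparing the AP position 1 nt on were added after the values were seen.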

Additional observations from a re-analysis of the deposited data

How the results depend on the processing

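The 4 comparisons with AP libraries (members against single-library nucleotides, own against opposite strand, 4 or more against 3 SSB libraries, and AP counts above 1) kept the direction of their mean and stayed below 0.05 under all alternatives tried, with 1 exception. The difference in AP counts above 1 outside clusters was 2.32 points with p = 1 (exact sign-flip test). There members were higher in 1 and lower in 11 of 12 AP libraries. The size moved: the difference of members from single-library nucleotides, 6.78 points, was 13.8 with 4 or more SSB libraries, 13.04 after thinning, 28.2 for an AP position within 5 nt, 9.98 at 1 nt in the 3′ direction, 5.57 within the same windows and 0.505 outside clusters. With the replicate block, each replicate number gave a difference of members from single-library nucleotides of 6.93 and 6.64 points over 6 tissues (exact sign-flip test, p = 0.0312 each, the smallest possible), and the tissue test gave p = 0.129 (exact permutation test). Whether the numbers mark the mice is not stated. Deviations of libraries with equal numbers correlated at -0.122 to 0.0794 over 15 pairs of tissues for AP. No shared deviation was seen by number, but if the numbers do not mark the mice, one of an animal would be missed. The block changed no call.

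The number of members was 285 with 4 or more libraries, 209 with libraries thinned to 225011 positions and 300 outside clusters, and 654 to 855 without a library, lowest without the second heart library. The share in gene spans was 30.9% with 4 or more libraries, 62.0% outside clusters and 55.9% without the largest cluster. For protein-coding genes it was 33.1%, beside 52.8% of all autosomal SSB nucleotides. The share near gene ends was 14.8% after thinning, 12.1% within 500 bp, 57.2% within 5 kb, 5.64% for protein-coding genes and 16.3% without the largest cluster. For 500 bp, 5 kb and protein-coding genes the share of all autosomal SSB nucleotides is not given, so these values cannot be called high or low. The share in clusters was 82.5% with 4 or more libraries, 53.6% without the largest cluster, and 68.04% to 72.8% without each library. The between-tissue sum of squares of the AP listing was 20.3, and 14.7 to 36.9 without each library in turn. Its p was 0.0352 without the first liver AP library, at most 0.165 without another AP library and 0.0519 to 0.211 without an SSB library (exact permutation tests). Without division by AP positions the tissue test gave p = 0.473 (exact permutation test). The cause of these changes was not tested, apart from fewer libraries leaving fewer members. Depth limits how many nucleotides can recur, and a nucleotide not listed is not shown to be unbroken.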
